A study of Mus musculus with 4 samples.

Results

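The genes described here are 10 regulators of the G1 phase of the cell cycle: the CDK inhibitors Cdkn1a, Cdkn1b, Cdkn2a, Cdkn2b, Cdkn2c and Cdkn2d, the CDK-binding phosphatase gene Cdkn3, and the retinoblastoma family Rb1, Rbl1 and Rbl2. They were chosen by name from the 55416 annotated genes in the files, and all 10 were found. The level of a gene was the sum of TPM (a transcript's share of all transcripts in a library, corrected for its length) over its annotated transcripts. The RNA came from mouse myoblasts of the line C2C12, harvested 24 h after lipid transfection with 3 µg of DNA for lamin A. One group received wild-type lamin A (2 libraries, called wild type below) and the other K97E lamin A, labelled as a mutant of dilated cardiomyopathy (2 libraries, called K97E). All 4 libraries therefore carried transfected lamin A on top of the cells' own, and cells without added DNA were not analysed here. The share of cells that took up the DNA, its promoter and its species are not given in the sources used here. The cells were below full confluence when transfected. The titles of the K97E samples write the line as C1C12, and their cell line field writes C2C12. Labels call the replicates biological but do not tie them to separate cultures. The p-values thus set each difference only against the spread among these samples, estimated in part from other genes. That spread may be technical.

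Progress through G1 is driven by D-type cyclins with CDK4 or CDK6 and by cyclin E with CDK2. These kinases phosphorylate the pocket proteins, pRb (Rb1), p107 (Rbl1) and p130 (Rbl2), which otherwise bind E2F factors and repress genes of DNA replication. INK4 proteins (Cdkn2a to Cdkn2d) bind CDK4 and CDK6, while Cip/Kip proteins (Cdkn1a, Cdkn1b and Cdkn1c) bind cyclin-CDK complexes more broadly. In myoblasts p21 (Cdkn1a) and pRb are known for their part in the exit from the cell cycle when muscle fibres form. Lamin A, with its partner LAP2-alpha from Tmpo, is known to bind pRb.

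The deposited coverage came to an estimated 89600000 to 115600000 reads a library. Over 16304 tested genes, those with a mean of at least 0.5 TPM, the 2 wild-type libraries correlated across genes at a Pearson r of 0.985, the 2 K97E libraries at 0.991, and pairs of different groups at 0.987 to 0.989. The median ratio of first-exon to last-exon coverage was lowest in wild-type replicate 1, at 0.426 against 0.457, 0.492 and 0.504 in the other libraries, over 8607 transcripts. Lmna, which cannot be separated here from reads of the transfected DNA and so does not check the labels, was at 558 and 596 TPM in wild type and at 659.7 and 629 TPM in K97E. Of the defining myoblast genes, Myf5 (41.5 to 47.8 TPM), Myod1 (4.56 to 4.96 TPM) and Des (384 to 467 TPM) were present in every library. Pax7 and Myog, markers of satellite cells and of differentiating myocytes, were at or near 0, at no more than 0.0065 and 0.096 TPM.

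Cdkn1a was the most abundant of the set by a wide margin, and K97E and wild type did not differ in it beyond the spread of the libraries. Cdkn1a (ENSMUSG00000023067; GRCm39 chromosome 17, 29309950 to 29319701, plus strand) encodes p21, a target of p53 that inhibits cyclin-CDK complexes and binds PCNA. Its level was 365 and 418 TPM in wild type and 446 and 359.5 TPM in K97E. The groups overlapped, with the highest and the lowest library both from K97E. The means were 392 ± 37 TPM (SD, n = 2) and 403 ± 61 TPM (SD, n = 2). On the log2(scaled TPM + 0.5) scale, K97E minus wild type was -0.02 (SE 0.13), with a 95% interval of -0.35 to 0.31 and a limma adjusted p of 0.992. The interval reaches from a ratio of 0.783 to one of 1.24. In bulk RNA of this kind, fewer cells with a transcript and less of it per cell cannot be told apart.

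The level of Cdkn1a exceeded that of 97.8% of the tested genes and rested on 28691 to 44019 estimated reads a library. Its 5 annotated transcripts include 2 that begin in separate promoters. ENSMUST00000023829, which starts at 29312743, held 94.0% of the TPM over the 4 libraries. It stood at 339 and 397 TPM in wild type and 420.1 and 337 TPM in K97E. ENSMUST00000119901 starts 2790 bases upstream, at 29309953, and stood at 17.1 and 11.1 TPM in wild type and 15.0 and 13.6 TPM in K97E. The K97E values of the upstream transcript lay between the wild-type ones, and its share of the gene ran from 2.66% to 4.67%. Coverage of the first exon of the main transcript was 395 and 939 in wild type and 1092 and 877 in K97E, against 1688, 2124, 2382 and 1798 over its last exon. Wild-type replicate 1 was low in the first exon relative to the last here as it was over all transcripts, and the part of this in the values of Cdkn1a was not tested. Reads of 1700023B13Rik, an antisense neighbour at 3.04 to 5.19 TPM, could be credited to either gene.

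The promoters of both Cdkn1a starts are shown because the files measure both, and because p53, whose mRNA was abundant in these cells, is the best-known activator of the gene. The sequences are the 250 bases before each start, from RefSeq on GRCm38.p6, where the starts are also 2790 bases apart. Capitals mark a pair of p53 core half-sites, searched as CATGNNNNNNCATG, which reads the same on both strands.
Cdkn1a upstream start, chr17:29090729-29090978, plus strand: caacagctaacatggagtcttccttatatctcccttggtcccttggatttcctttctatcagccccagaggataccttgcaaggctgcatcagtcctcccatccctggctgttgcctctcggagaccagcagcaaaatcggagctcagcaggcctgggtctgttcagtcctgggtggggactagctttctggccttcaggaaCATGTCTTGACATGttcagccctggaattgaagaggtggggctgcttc
Cdkn1a main start, chr17:29093519-29093768, plus strand: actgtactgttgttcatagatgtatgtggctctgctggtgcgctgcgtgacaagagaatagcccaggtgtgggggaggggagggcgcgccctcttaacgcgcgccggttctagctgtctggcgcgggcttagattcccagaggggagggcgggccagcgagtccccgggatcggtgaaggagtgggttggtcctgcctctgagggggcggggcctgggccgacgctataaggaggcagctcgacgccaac
The upstream promoter holds 1 match, CATGTCTTGACATG, which begins 48 bases before its start. The promoter of the main start, from which most Cdkn1a RNA was credited, holds none in its 300-base window (250 bases before to 50 after the start). Of the 32851 RefSeq promoters of that length, 0.712% hold the pair, and of the 12 promoters listed for 9 of the 10 genes only this one does. A match describes the letters and is not a measured binding site.

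**Figure D1:**
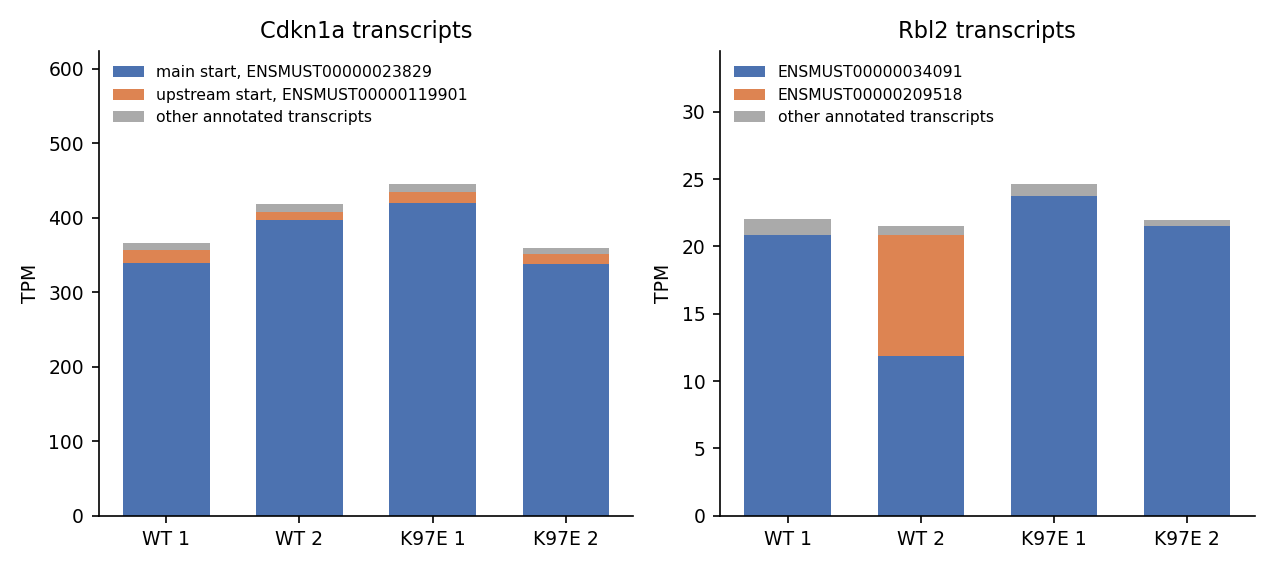
TPM (y axis) of the annotated transcripts of Cdkn1a (left) and Rbl2 (right) in each library (x axis; WT, wild type), stacked. The main Cdkn1a start holds most of the gene in all 4 libraries, and the second Rbl2 transcript is above 0 only in wild-type replicate 2.

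Cdkn1b was the only gene of the set whose groups did not overlap after scaling, and it was not called. Cdkn1b (ENSMUSG00000003031; chromosome 6, 134897364 to 134902476, plus strand) encodes p27, which inhibits CDK2 and is removed by the ubiquitin ligase subunit SKP2. It stood at 43.9 and 39.7 TPM in wild type and at 39.3 and 39.9 TPM in K97E. As deposited, the second wild-type library lay between the K97E libraries. After scaling both K97E libraries lay lower, as they did for 16.8% of all tested genes (33.1% did not overlap in either direction). The log2 difference was -0.13 (SE 0.10, 95% interval -0.38 to 0.11, limma adjusted p = 0.965). It kept its sign in all 16 other fits, from -0.20 without wild-type replicate 2 to -0.06 without wild-type replicate 1. Its main transcripts share a first base and differ in length, ENSMUST00000003115 (2393 bases, 55.1% of the TPM) and ENSMUST00000067327 (4552 bases, 42.0%). ENSMUST00000003115 stood at 24.8, 21.6, 20.7 and 22.5 TPM and ENSMUST00000067327 at 17.7, 16.8, 17.6 and 16.3 TPM, wild type first. Cdkn1c, the third Cip/Kip gene, was near 0 at 0.201 to 0.317 TPM and was not tested. Cdkn1a thus made up 89.2% to 91.8% of Cip/Kip TPM in each library.

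Cdkn2a and Cdkn2b were listed at 0 in all 4 libraries. Cdkn2a (ENSMUSG00000044303; chromosome 4, 89192708 to 89212890, minus strand) encodes p16INK4a and, from an upstream first exon and another reading frame, ARF, which restrains MDM2. Cdkn2b (ENSMUSG00000073802; 89224536 to 89229276, minus strand) encodes p15INK4b. Every exon of both Cdkn2a transcripts and of the Cdkn2b transcript had a coverage of 0 in every library, including the exons that p16INK4a and ARF share. Among all genes 43.4% were at 0 in the 4 libraries, and among 21877 genes that GENCODE M21 calls protein-coding 22.0%.

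The zeros ran on past both genes. Cdkn2a and Cdkn2b are the first of 6 consecutive genes at 0 in all libraries, which span 159 kb, from 89192708 to 89351724. The others are Gm12609, Gm12610, Gm12608 and ENSMUSG00002075062. Gm12606, which ends 1.07 kb before this stretch, was detected at 1.35 to 2.25 TPM in every library. Further out on the same side, Tgif2-ps1 was again at 0 in all libraries. With it, 7 of the 17 genes within 400 kb of the upstream Cdkn2a start were at 0 throughout. Beyond Tgif2-ps1, Mtap, a methionine salvage enzyme, stood at 160.2 and 148 TPM in wild type and 139 and 156 TPM in K97E. On the far side the next gene, Dmrta1, a DM-domain transcription factor, was at 0.109 and 0.0322 TPM in wild type and at 0 in both K97E libraries. Whether these genes were silent or missing from the genome of these cells was not tested. No K97E comparison is possible for Cdkn2a or Cdkn2b.

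**Figure D2:**
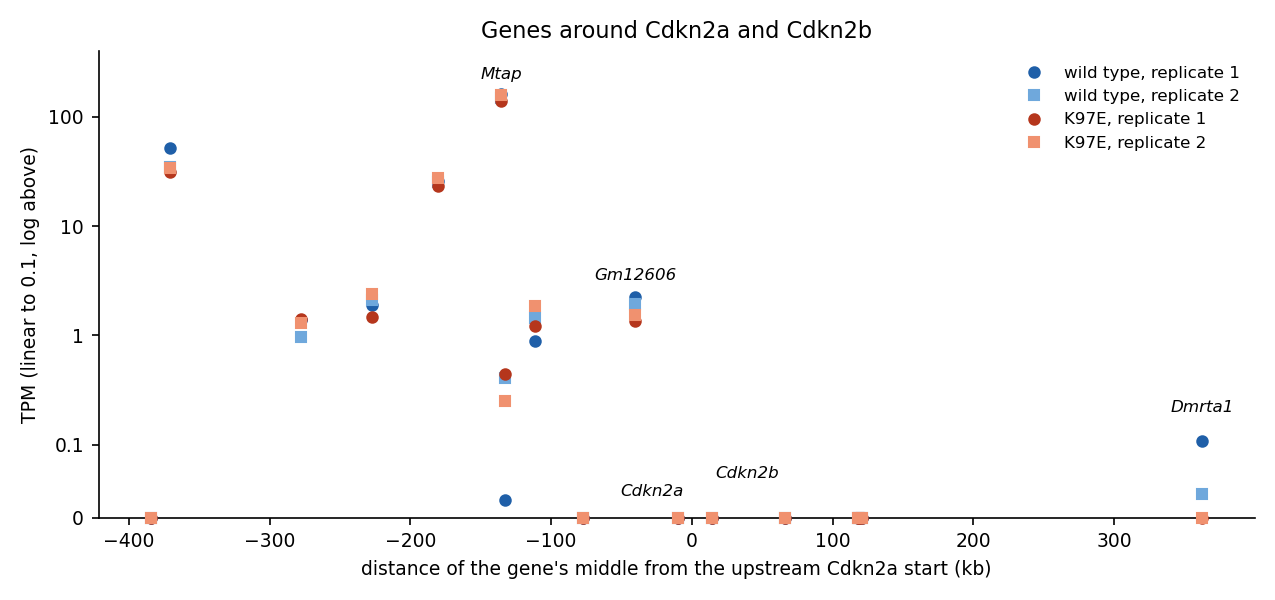
TPM (y axis, linear to 0.1 and logarithmic above) of the 17 genes within 400 kb of the upstream Cdkn2a start, by the distance of each gene's middle from it in kb (x axis), with 1 point per library. The genes from Cdkn2a rightwards are at 0 in all libraries up to Dmrta1, and Gm12606 and Mtap on the left are above 1 TPM in all 4.

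The other INK4 genes, Cdkn2c and Cdkn2d, were present at like levels, and neither differed between groups beyond the spread of the libraries. Cdkn2c (ENSMUSG00000028551; chromosome 4, 109518073 to 109524386, minus strand) encodes p18INK4c. It stood at 23.1 and 26.5 TPM in wild type and 31.1 and 24.3 TPM in K97E. The groups overlapped, and only K97E replicate 1 stood clear of the rest. Its log2 difference was 0.09 (SE 0.14, 95% interval -0.24 to 0.43, limma adjusted p = 0.965). Most of it came from ENSMUST00000097921 (84.2% of the TPM), and ENSMUST00000063531, with a start further into the gene, held between 11.7% and 18.9% of each library.

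Cdkn2d had the largest difference of the set, and 1 library set its size. Cdkn2d (ENSMUSG00000096472; chromosome 9, 21199706 to 21202703, minus strand) encodes p19INK4d. It stood at 20.7 and 31.5 TPM in wild type and at 31.5 and 31.1 TPM in K97E. Wild-type replicate 1 was low, and the other 3 libraries lay between 31.1 and 31.5 TPM. The log2 difference was 0.23 (SE 0.20, 95% interval -0.27 to 0.73, limma adjusted p = 0.965). Without wild-type replicate 1 it was -0.07. Without wild-type replicate 2 it was 0.53, with a limma adjusted p of 0.279. In wild-type replicate 1 the ratio of first-exon to last-exon coverage of its main transcript, ENSMUST00000215619, was 0.316 against 0.398, 0.450 and 0.389 in the others. The part of this in the difference was not tested. For main transcripts the ratio was also lowest in that library in Cdkn1a, Cdkn1b, Rb1 and Rbl2, but not in Cdkn2c, Cdkn3 or Rbl1. In Rbl1 it was highest there, at 1.14 against 1.04, 1.00 and 1.03. Cdkn1b had its highest TPM in that library. Cdkn2c held 43.9% to 52.7% of INK4 TPM in each library and Cdkn2d the rest.

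Cdkn3 did not differ between the groups, and the gap between its K97E libraries was the widest after that of Cdkn2d in wild type. Cdkn3 (ENSMUSG00000037628; chromosome 14, 46997998 to 47009126, plus strand) encodes KAP, a phosphatase that removes the activating phosphate of CDK2, and its mRNA is known to rise in dividing cells. It stood at 22.6 and 24.9 TPM in wild type and at 28.5 and 21.2 TPM in K97E, so the K97E libraries enclosed the wild-type ones. The log2 difference was -0.01 (SE 0.14, 95% interval -0.37 to 0.36, limma adjusted p = 0.999). Replicate 1 of K97E exceeded replicate 2 by 0.36 on the log2 scale. Its transcripts ENSMUST00000067426 (8 exons) and ENSMUST00000226621 (7 exons) held 55.3% and 43.3% of the TPM. It rested on 782 to 1223 estimated reads, the fewest of the 8 genes detected.

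Of the pocket proteins Rbl1 was the most abundant, and none of the 3 differed between groups beyond the spread of the libraries. Rbl1 (ENSMUSG00000027641; chromosome 2, 156987813 to 157046454, minus strand) encodes p107, which pairs mainly with the repressor E2F4 and is itself known as an E2F target. It stood at 36.6 and 36.9 TPM in wild type and 34.0 and 38.0 TPM in K97E. The K97E libraries enclosed the wild-type ones. Its log2 difference was -0.09 (SE 0.11, 95% interval -0.36 to 0.18, limma adjusted p = 0.965). The 13-exon transcript ENSMUST00000124518 held 7.74% to 10.8% of its TPM, and the full 22-exon ENSMUST00000029170 held nearly all the rest.

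The Rbl1 promoter is shown because Rbl1 is itself known as an E2F target. Capitals mark an 8-base E2F match, searched on both strands as TTTCCCGC, TTTCGCGC, TTTGCCGC or TTTGGCGC, and in this promoter it overlaps no other motif searched. The sequence is the 250 bases before the start, from RefSeq on GRCm38.p6.
Rbl1, chr2:157204535-157204784, minus strand: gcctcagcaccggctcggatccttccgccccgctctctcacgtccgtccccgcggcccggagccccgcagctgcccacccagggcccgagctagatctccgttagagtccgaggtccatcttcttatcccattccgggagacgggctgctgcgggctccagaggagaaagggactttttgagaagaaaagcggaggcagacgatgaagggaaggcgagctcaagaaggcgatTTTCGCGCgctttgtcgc
The match, TTTCGCGC, begins 18 bases before the start. Such a match is in 2.26% of all RefSeq promoters of 300 bases. Among the 12 promoters of the set it is also in the upstream promoter of Cdkn2a, on the ARF side, 99 bases before that start. The third motif searched, the cell cycle homology region TTTGAA on either strand, is in 17.9% of all promoters, and in those of Cdkn2b, Cdkn3 and Rbl2. Rb1 is not among the promoters used.

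Rb1 (ENSMUSG00000022105; chromosome 14, 73421113 to 73563262, minus strand) encodes pRb, the main partner of the activating E2F factors. It had the lowest mean of the genes detected, with a range that overlapped that of Rbl2, at 18.3 and 22.0 TPM in wild type and 22.0 and 18.5 TPM in K97E. Each group had 1 high and 1 low library at nearly the same values. This gave a log2 difference of -0.05 (SE 0.13, 95% interval -0.37 to 0.28, limma adjusted p = 0.985). The 27-exon ENSMUST00000022701 held 96.2% of its TPM. Antisense neighbours that share exonic bases with it were Rcbtb2, at 12.6 to 15.9 TPM, and Lpar6, at 2.79 to 3.23 TPM.

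Rbl2 (ENSMUSG00000031666; chromosome 8, 91796685 to 91850472, plus strand) encodes p130, the pocket protein most associated with resting cells and with the DREAM repressor complex. It stood at 22.1 and 21.5 TPM in wild type and at 24.7 and 21.9 TPM in K97E. The groups overlapped after scaling, and K97E replicate 1 was the highest. The log2 difference was 0.04 (SE 0.10, 95% interval -0.20 to 0.27, limma adjusted p = 0.985). Beneath this steady sum the transcripts were split differently in 1 library. ENSMUST00000209518 was credited with 9.0 TPM in wild-type replicate 2 and with 0 in the other 3 libraries, while ENSMUST00000034091 stood at 11.9 TPM there and at 20.9, 23.7 and 21.5 TPM in the others. The 2 transcripts, of 22 exons each, differ in the length of exon 1 (350 and 249 bases), exon 11 (104 and 74 bases) and exon 22 (1569 and 1567 bases). The split was in 1 of 2 wild-type libraries, so it does not separate the groups. Aktip, on the other strand, shares exonic bases with Rbl2 and stood at 13.2 to 14.3 TPM.

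**Figure D3:**
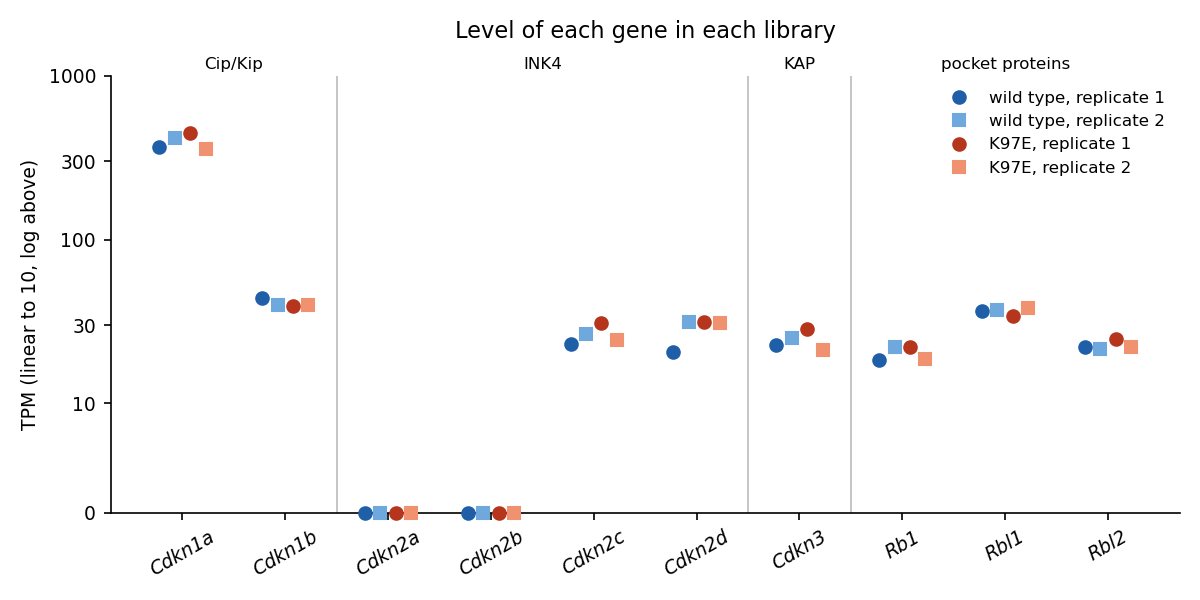
TPM (y axis, linear to 10 and logarithmic above) of each of the 10 genes (x axis, by family), with 1 point per library. Cdkn1a lies far above the rest, Cdkn2a and Cdkn2b are at 0, and within each gene the wild-type and K97E points are mixed.

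By mean TPM over the 4 libraries the order was Cdkn1a (397), Cdkn1b (40.7), Rbl1 (36.4), Cdkn2d (28.7), Cdkn2c (26.2), Cdkn3 (24.3), Rbl2 (22.6) and Rb1 (20.2), followed by Cdkn2a and Cdkn2b at 0. The mean of Cdkn1a was 9.76 times that of Cdkn1b. The ranges of neighbours did not overlap in the steps from Cdkn1a to Cdkn1b, to Rbl1 and to Cdkn2d. From Cdkn2d down to Rb1 each range overlapped the next, so the order of these 5 genes is not set by the data. The pocket proteins summed to 77.0 and 80.4 TPM in wild type and 80.6 and 78.5 TPM in K97E. Within that sum Rbl1 held 42.1% to 48.4%, Rbl2 26.8% to 30.6% and Rb1 23.6% to 27.3%, with no group apart from the other.

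None of the 8 tested genes was called at an adjusted p of 0.05 by limma, where 0.00613% of all tested genes (1 of 16304) were called. None reached an unadjusted p under 0.05 either, against 3.68% of all tested genes (1.14% higher and 2.54% lower with K97E), and none was called by voom, the other method run. Of the 8 differences 3 were positive and 5 negative, with a median of -0.01, beside -0.0017 over all tested genes. All 8 intervals lay within a 2-fold change either way, and 7 of 8 within a 1.5-fold change, with Cdkn2d the exception. In 8 of 8 genes the gap between libraries of 1 group was wider than the gap between the group means, as it was in 80.2% of all tested genes. With 2 libraries a group an exact two-sided permutation test could not go below p = 0.333, so none was run.

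**Figure D4:**
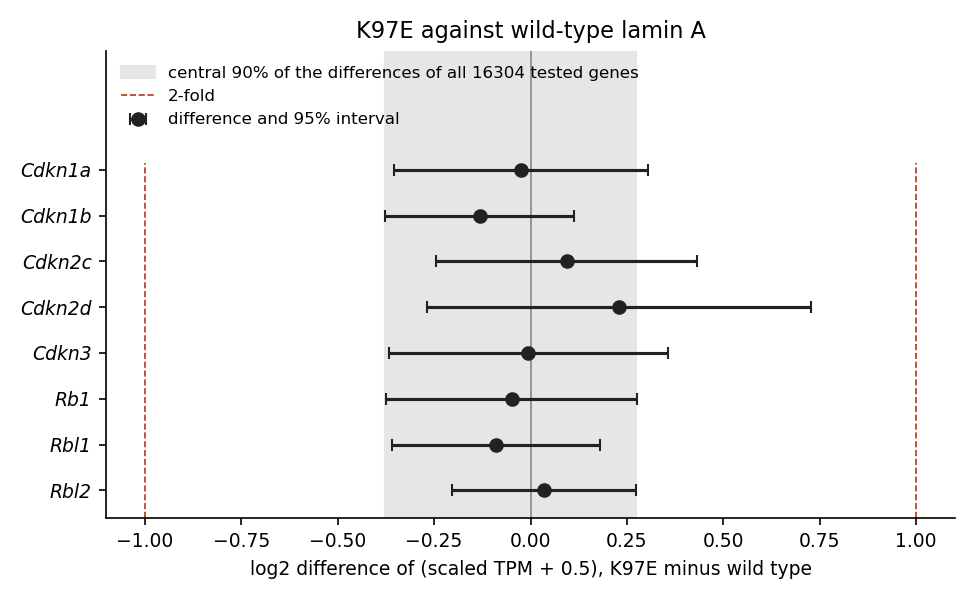
The log2 difference in (scaled TPM + 0.5), K97E minus wild type (x axis), of the 8 tested genes (y axis), with limma's 95% interval as bars, the central 90% of all tested genes in grey and a 2-fold change dashed. All 8 intervals include 0 and none reaches the dashed lines.

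In Cdkn1a, Cdkn2c, Cdkn3 and Rb1, 4 of 8, wild-type replicate 2 exceeded replicate 1 and K97E replicate 1 exceeded replicate 2. This order was found in 30.6% of all tested genes, so it was not particular to the set. Cdk1 and Ccnb1, a mitotic kinase and its cyclin, were singled out after their values were seen and had that order too. Other cell cycle genes did not, and Cdk4 and Mcm6 had the reverse order. Cdk1 stood at 56.1 and 80.1 TPM in wild type and 79.6 and 63.6 TPM in K97E, and Ccnb1 at 77.4, 107, 124 and 89.2 TPM. Whether replicate numbers link libraries across groups was not established, and the source of this order was not tested.

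The cyclins, CDKs and genes of the CDK-activating kinase were detected except Ccna1, which was at 0 in all libraries. None of the 15 tested was called. Of these, 11 differences were positive and 4 negative, with a median of 0.01 that ran from -0.05 without K97E replicate 1 to 0.12 without wild-type replicate 2. Cdk4 stood at 261 and 247 TPM in wild type and 275 and 292 TPM in K97E (log2 difference 0.10, SE 0.10). Cdk6 was lower in level, at 22.0 to 23.9 TPM, and Cdk2 stood at 26.4 to 32.1 TPM. Ccnd1, the main D-type cyclin here, stood at 189 and 231 TPM in wild type and 285 and 225 TPM in K97E (0.22, SE 0.15). With wild-type replicate 1 left out the difference of Ccnd1 was 0.07, and with K97E replicate 1 left out 0.08. That of Cdk4 was 0.02 without K97E replicate 2. Mnat1, the assembly factor of the CDK-activating kinase, had the smallest unadjusted p of the list, 0.0019, with a limma adjusted p of 0.965. It stood at 32.5 and 29.2 TPM in wild type and 22.5 and 21.1 TPM in K97E, a log2 difference of -0.55 (SE 0.10), lower in both K97E libraries. Over the other fits its adjusted p was no lower than 0.155, and with voom on estimated reads, which are not divided by transcript length, the difference was -0.15. The estimated reads of Mnat1 were 2587 and 2679 in wild type and 2979 and 2556 in K97E and overlapped. Its transcripts, looked at after these values were seen, were credited differently by group. ENSMUST00000189644 (1294 bases) stood at 24.2 and 22.3 TPM in wild type and 0 and 1.34 TPM in K97E, and ENSMUST00000021523 (2505 bases) at 0.589 and 0.444 TPM in wild type and 22.4 and 19.8 TPM in K97E. ENSMUST00000187549 (3688 bases), the longest, stood at 7.67 and 6.52 TPM in wild type and at 0.0622 and 0 TPM in K97E. The difference in gene TPM thus came with another mix of credited transcripts, which was not tested.

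E2F factors and their targets leaned to positive differences, none of which was called by limma or had an unadjusted p under 0.05. Over all tested genes 8075 of 16304 differences were positive. Of the E2F and DP genes 7 of 10 were positive, with a median of 0.09 that fell to 0.05 without wild-type replicate 1 or without K97E replicate 2. E2f1, an activator, stood at 22.2 and 25.7 TPM in wild type and 28.1 and 26.6 TPM in K97E (0.13, SE 0.11). E2f4, the repressor that partners p107 and p130, stood at 36.9, 33.0, 40.2 and 38.4 TPM (0.11, SE 0.10), and E2f5 and Tfdp2 at 14.3 to 17.8 and 13.9 to 18.4 TPM. The difference of E2f1 was 0.03 without wild-type replicate 1, and that of E2f4 was 0.03 without wild-type replicate 2. Of the 18 E2F target genes of DNA replication 16 were positive, with a median of 0.09. Leaving out wild-type replicate 1 took that median to 0.03, and leaving out K97E replicate 2 took it to 0.01. The largest of these differences was in Cdt1, a replication licensing factor, at 25.1 and 29.5 TPM in wild type and 33.9 and 34.8 TPM in K97E (0.27, SE 0.11, limma adjusted p = 0.965). Without wild-type replicate 1 it was 0.15. Mcm2, of the replicative helicase, stood at 38.0, 44.7, 48.2 and 47.5 TPM. Tk1 and Rrm2, of nucleotide synthesis, were low in wild-type replicate 1, at 75.3 and 94.2 TPM, and stood at 103 to 116 and 122 to 140.1 TPM elsewhere.

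The complexes that pocket proteins work through showed no called gene. Of 7 tested MuvB and MYB genes 4 were positive and 3 negative, with a median of 0.002 that ran from -0.08 without K97E replicate 1 to 0.07 without K97E replicate 2. Lin9, a MuvB core subunit, stood at 12.9 and 13.0 TPM in wild type and 11.98 and 10.9 TPM in K97E (-0.23, SE 0.10, limma adjusted p = 0.965). Lin37 stood at 22.2 to 24.3 TPM, Rbbp4, a histone chaperone, at 108 to 134 TPM and Mybl2, the B-MYB gene, at 12.6 to 17.6 TPM. Of 13 corepressor genes 5 were positive and 8 negative, with a median of -0.07 that became -0.0056 without K97E replicate 1. Smarca2, the BRM ATPase of SWI/SNF, stood at 35.6 and 32.8 TPM in wild type and 22.2 and 29.1 TPM in K97E (-0.48, SE 0.16, limma adjusted p = 0.965). Without K97E replicate 1 its difference was -0.25, and with voom on estimated reads -0.19, where the estimated reads of Smarca2, 2872 and 3147 in wild type and 3232 and 2904 in K97E, overlapped. Arid4a and Arid4b, pRb-binding proteins of the SIN3 complex, stood at 14.5 to 18.1 and 24.8 to 29.2 TPM, and Sin3a at 34.5 to 36.9 TPM.

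Regulators of the inhibitors were likewise uncalled. Trp53, the activator of Cdkn1a, stood at 219 and 205 TPM in wild type and 221 and 229 TPM in K97E (0.03, SE 0.10). Mdm2, the p53 ubiquitin ligase and another p53 target, had 165 and 173 TPM in wild type and 185 and 149.7 TPM in K97E (-0.08, SE 0.11). Of the 17 tested transcriptional regulators 9 were positive and 8 negative, with a median of 0.01 that lay between 0.0041 and 0.03 with any 1 library left out. Foxo1, an activator of Cdkn1b, stood at 10.1 and 10.2 TPM in wild type and 13.5 and 11.04 TPM in K97E (0.20, SE 0.12; 0.10 without K97E replicate 1), and Dmtf1, an activator of ARF, at 20.7, 19.2, 18.4 and 18.1 TPM (-0.18, SE 0.10). Myc, a repressor of Cdkn1a, was high in wild-type replicate 1, at 116 TPM against 76.9 to 96.1 TPM, and Id1 was low there, at 58.4 TPM against 75.7 to 80.3 TPM. Of the 8 turnover genes 5 were positive and 3 negative, with a median of 0.04 that ran from -0.02 without wild-type replicate 1 to 0.10 without wild-type replicate 2. Skp2 stood at 14.5 and 14.9 TPM in wild type and 16.0 and 16.7 TPM in K97E (0.09, SE 0.10; 0.03 without K97E replicate 2). Cul1, Fbxw7 and Ubac1, of ubiquitin ligases, ranged over 64.2 to 70.4, 11.1 to 11.9 and 33.4 to 39.3 TPM.

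**Figure D5:**
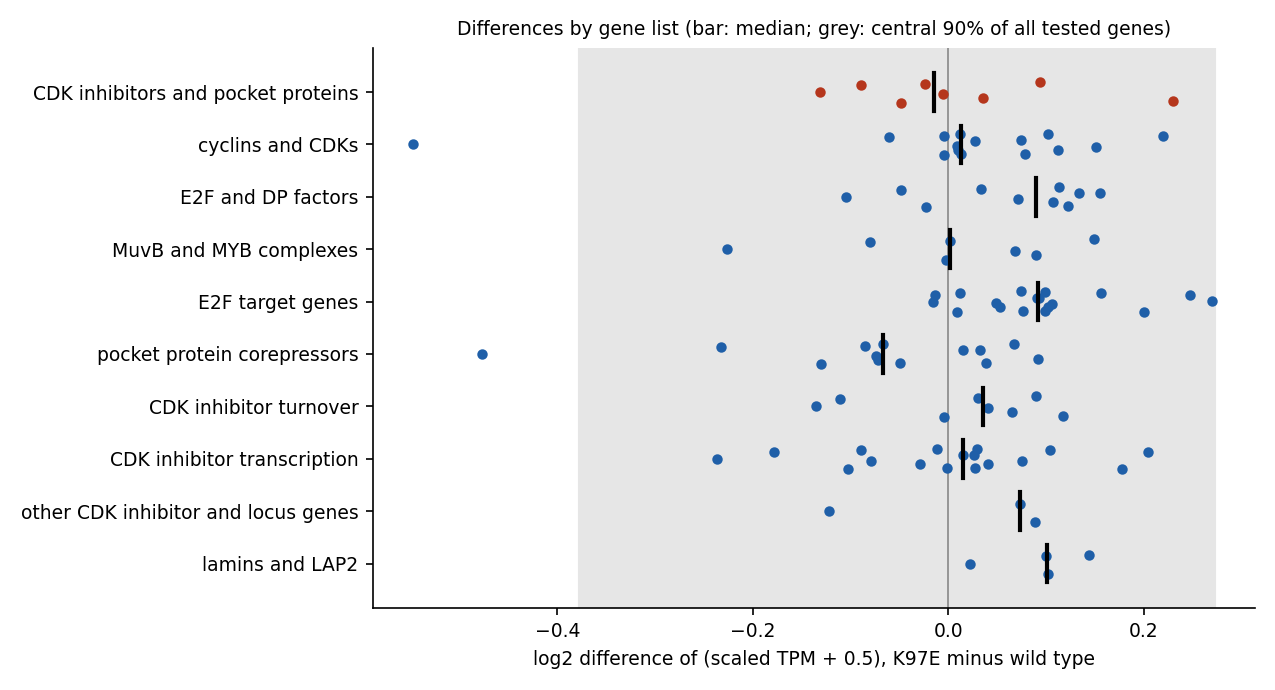
The log2 difference in (scaled TPM + 0.5), K97E minus wild type (x axis), of each tested gene of the set and of the 9 pathway lists (y axis; the marker lists are not drawn), with 1 point per gene, a bar at the median and the central 90% of all tested genes in grey. Mnat1 and Smarca2 are the points drawn left of the grey band, and neither was called.

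The lamin and LAP2 genes were all positive, 4 of 4 with a median of 0.10, beside 8075 of 16304 tested genes, and none was called by limma. They include Lmna (0.10), which cannot be separated here from reads of the transfected DNA. Tmpo, which encodes LAP2, stood at 225 and 189.9 TPM in wild type and 213 and 224 TPM in K97E (0.02, SE 0.12). Lmnb1 and Lmnb2, the B-type lamins, stood at 52.5 to 64.2 and 25.6 to 31.1 TPM. Cdkn2aip and Cdkn2aipnl, an ARF-binding protein and its relative, stood at 7.02 to 8.47 and 33.1 to 42.3 TPM. Of the 6 tested myoblast markers 1 was positive and 5 negative, with a median of -0.17. Without wild-type replicate 2 the median was -0.10 and Mymk turned positive, from -0.57 to 0.12. Their summed level over all 8 was 545 to 623 TPM in wild type and 526 to 534 TPM in K97E. Chrna1, a muscle acetylcholine receptor subunit, stood at 49.8 and 51.8 TPM in wild type and 40.2 and 41.3 TPM in K97E (-0.37, SE 0.09, limma adjusted p = 0.965), and Mymk at 0.926 to 3.83 TPM. Of the other lineages, Ptprc, Adgre1, Cd3e, Epcam and Krt5 were at or under 0.0534 TPM in all libraries. Leukocyte markers summed to 3.94 and 5.74 TPM in wild type and 4.67 and 3.32 TPM in K97E, nearly all of it Cd68, and epithelial markers to 0.192 to 0.393 TPM. Endothelial markers summed to 24.9 and 22.1 TPM and to 20.9 and 22.1 TPM, most of it Cdh5. Flt1 stood at 3.13 to 4.13 TPM, Kdr was at 0 in all libraries, and Pecam1 and Tek reached at most 0.159 and 0.326 TPM. Fibroblast markers summed to 72.5 and 68.6 TPM and to 85.0 and 82.3 TPM, most of it Pdgfrb. Pdgfra stood at 9.29 to 11.2 TPM, Tcf21 was at 0 in all libraries, and Thy1 and Dpt reached at most 0.0606 and 0.252 TPM. Neural markers summed to 5.07 to 7.67 TPM, most of it Tubb3 with Map2 at 0.598 to 1.28 TPM. The part of these markers in any difference above was not tested.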

How the data were processed

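The mRNA libraries of C2C12 cells given wild-type (2) or K97E (2) lamin A were grouped by their genotype label. Per the file headers, the authors ran StringTie 2.1.7 in its mode limited to annotated transcripts, on Ensembl release 104 (GRCm39) and with no strand option, although the labels' protocols name a stranded kit. The submitters' processing notes also name HISAT2, SAMtools, FastQC and DESeq2 without their roles. The deposited files give coverage, FPKM and TPM per transcript and coverage per exon, as the authors computed them, and no counts, so no counting interval was made. Reads were estimated as coverage times length over the read length of 100.

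TPM was summed per gene, using either name tag of a transcript line, scaled by a median-of-ratios factor per library (0.98, 0.98, 1.04 and 1.00, from genes above 1 TPM throughout), and taken to log2 with a pseudocount of 0.5. Genes averaging 0.5 TPM or more were tested with limma 3.58.1 in R 4.3.3 (two-sided, eBayes with trend, total degrees of freedom 5.54). Its p-values were adjusted over all 16304 genes by Benjamini and Hochberg's method. Levels in the text are deposited TPM before scaling. Tables were made in Python 3.11.15 (pandas 2.3.3, matplotlib 3.10.9). On simulated data for this comparison with 16304 genes, the fit found 69 of 100 genes given a 2-fold change. It found 93 of 100 given a 4-fold one, with 10 false calls in the whole simulation. Both sets of changed genes were planted together, among better expressed genes. The noise was drawn independently for each gene, with variances from the distribution that the fit itself assumes. These shares are thus not the power of the real comparison, where 1 gene was called.

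The genes, the 9 pathway lists and the 6 marker lists were chosen with earlier results of these data known. Beside the 10 genes, the text names of each list the 4 tested genes with the smallest unadjusted p and a fixed set of regulators. Cdk1, Ccnb1 and several markers, some of them not tested, are named outside that rule. Of transcripts it names those with at least 5% of a gene's TPM, the upstream Cdkn1a transcript and those of Mnat1. Differences are given for some of these and levels for the rest. Promoters are RefSeq's, on GRCm38.p6, found for 9 of the 10 genes. Other settings were tried, 15 chosen at the start and 1 later: pseudocounts of 0.1 and 1, no filter or 5 TPM, TPM or FPKM as deposited, quantile normalization, eBayes without trend or robust, voom, 2 replicate blocks, and each library left out.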

Additional observations from a re-analysis of the deposited data

How the results depend on the processing

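None of the 8 tested genes was called in any of the 16 other fits, where the smallest limma adjusted p was 0.279 (Cdkn2d, without wild-type replicate 2). Over all genes, 1 call became 26 without the filter on low values, 2 with TPM as deposited, 2 with eBayes without trend, 4 with voom weights and 0 with the replicate number as a block (replicate block). The count at an unadjusted p under 0.05, 600 of the 16304 tested genes, became 1621 of 55416 genes without the filter. Those 55416 include 24041 genes at 0 in all libraries, so calls and counts with and without the filter are not directly comparable. Leaving out each library gave 0 (without K97E replicate 1 or 2) to 18 (without wild-type replicate 1) calls, and 373 (without K97E replicate 1) to 2373 (without wild-type replicate 2) genes at an unadjusted p under 0.05. The deviations of same-numbered libraries had a correlation of -0.14 across genes. From 2 libraries a group, this cannot show whether the numbers pair the samples. The replicate block, with 406 genes at an unadjusted p under 0.05, changed no call among the 8 genes. With the crossed pairing, chosen after seeing the data, 30 genes were called and 1278 had an unadjusted p under 0.05.

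Signs of small differences turned with the scaling. Cdkn1a became 0.034 with TPM as deposited, 0.067 with quantile normalization and 0.005 with FPKM. Cdkn3 became 0.051 with TPM as deposited, 0.022 with FPKM and 0.0042 with voom, and Rb1 became 0.0079 with TPM as deposited. That scaling moved the median of all genes to 0.05, the largest shift of any. With 1 library left out in turn, Cdkn1a ranged from -0.15 to 0.10, Cdkn2c from -0.048 to 0.23, Cdkn2d from -0.072 to 0.53, Cdkn3 from -0.18 to 0.17, Rb1 from -0.18 to 0.078, Rbl1 from -0.20 to 0.023 and Rbl2 from -0.016 to 0.084. Trp53 ranged from -0.032 to 0.084, Mdm2 from -0.20 to 0.040, Tmpo from -0.10 to 0.14 and Mymk from -1.27 to 0.12. Cdkn1b was the only one of the 8 whose sign held in all 16 fits. In a fit without 1 library, the lone sample of its group is taken to vary like the other group. With 2 libraries a group, changes smaller than the 95% intervals were not detectable, and some larger ones were not called either. Mnat1 (95% interval -0.79 to -0.30) and Chrna1 (-0.60 to -0.15) both had a limma adjusted p of 0.965.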
